A study of Mus musculus with 4 samples.

Results

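RIF1 peaks inside gene bodies and close to, but not on, a transcription start site (TSS) were examined in activated primary mouse B cells. A peak entered this set if it lay on an autosome, was under 50 kb wide, overlapped a gene body, kept clear of all annotated transcript 5′ ends and the 1 kb to either side of them, and had its midpoint at most 10 kb from the nearest such end. In total, 1538 peaks met these criteria, out of 15635 autosomal peaks and 16332 intervals of all widths in the list. They are called near-start gene body peaks here. The other autosomal peaks fell into 7534 at a TSS, 2074 in gene bodies over 10 kb from any start (deep gene body peaks) and 4489 outside genes.

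RIF1 is a large chromatin protein with several known roles. It recruits protein phosphatase 1 to keep origins of replication from firing, and in B cells it acts with 53BP1 to protect DNA ends from resection during immunoglobulin class switching. It also binds folded guanine-rich DNA (G-quadruplexes) in vitro. Intragenic sequence near a start often holds enhancers and alternative promoters, which are bound by transcription factors of the cell type.

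Chromatin immunoprecipitation and sequencing (ChIP-seq) was performed on splenic B cells from Rif1FH/FH mice (Rif1FH, 2 samples) and from C57BL/6 mice with the untagged protein (Rif1WT/WT, 2 samples), which served as the negative control. In Rif1FH/FH mice the FLAG and HA tags sit at the N terminus of the endogenous protein, so its own promoter drives it. These mice were likewise kept on a C57BL/6 background. All cells were isolated from the spleen with anti-CD43 beads, activated with 5 µg/ml lipopolysaccharide (LPS) and 5 ng/ml interleukin 4 (IL-4), and harvested after 72 h. The antibody label names the CD43 beads, whereas the protocol gives an anti-HA antibody. The age of the mice and any pooling of spleens were not given in the sources used here. The list holds the positions that were called in both Rif1FH samples and no value per sample. Read depth is thus unknown, no spread between replicates could be computed, Rif1FH was not compared with Rif1WT, and the cell type could not be checked against its markers. Intervals are 95% confidence intervals (Wilson for shares, exact Poisson for densities, order statistics for medians). For ratios of densities they are a normal approximation on the log scale. All of them cover counting error only. Differences between classes of peaks were not tested, since positions are not replicates.

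To show what these peaks look like, the central 200 bases of 6 intronic peaks are printed 5′ to 3′ on the forward strand of mm9, read from the reference genome. They lie in genes of B cell biology and were chosen after their values were seen. Capitals mark matches to the motifs spelled out further on, except CpGs and TATA, which are left in lower case. The peak in the first intron of Elf1, an ETS transcription factor (chr14:79919216-79919415, forward strand, the strand of the gene), held an ETS-IRF composite and an AP-1 match. The peak in the first intron of Mef2c, a MADS-box factor of B cell survival (chr13:83657133-83657332, forward strand, the strand of the gene), held a G-quadruplex match, read here on its C-rich strand, and an E-box. The peak in an intron of Runx1, a factor of blood cell development (chr16:92620996-92621195, the gene on the reverse strand), held overlapping NF-kappaB and STAT6 matches and an AP-1 match. The peak in the first intron of Lyn, a Src family kinase of B cell receptor signalling (chr4:3657428-3657627, forward strand, the strand of the gene), held an AP-1 match. The peak in an intron of Prdm1, which drives plasma cell differentiation (chr10:44168680-44168879, the gene on the reverse strand), held an EBF match. The peak in the first intron of Bcl2, a survival gene (chr1:108445673-108445872, the gene on the reverse strand), held an NF-Y, an ETS and a PU.1 match.
Elf1: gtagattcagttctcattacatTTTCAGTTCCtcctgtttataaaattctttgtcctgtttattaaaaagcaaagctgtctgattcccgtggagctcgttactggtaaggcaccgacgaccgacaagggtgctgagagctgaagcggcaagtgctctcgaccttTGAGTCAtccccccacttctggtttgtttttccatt
Mef2c: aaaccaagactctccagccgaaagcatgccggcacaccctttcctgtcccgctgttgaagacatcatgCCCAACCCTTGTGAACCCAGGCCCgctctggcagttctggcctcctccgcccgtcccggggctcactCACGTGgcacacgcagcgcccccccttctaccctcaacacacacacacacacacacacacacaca
Runx1: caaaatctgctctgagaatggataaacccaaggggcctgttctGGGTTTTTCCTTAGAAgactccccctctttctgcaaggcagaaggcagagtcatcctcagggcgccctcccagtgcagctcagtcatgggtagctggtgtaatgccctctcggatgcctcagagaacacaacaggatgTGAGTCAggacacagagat
Lyn: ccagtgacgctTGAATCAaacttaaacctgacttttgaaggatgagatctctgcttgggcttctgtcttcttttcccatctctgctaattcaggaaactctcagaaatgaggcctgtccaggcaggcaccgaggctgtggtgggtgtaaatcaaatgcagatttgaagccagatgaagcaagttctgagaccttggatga
Prdm1: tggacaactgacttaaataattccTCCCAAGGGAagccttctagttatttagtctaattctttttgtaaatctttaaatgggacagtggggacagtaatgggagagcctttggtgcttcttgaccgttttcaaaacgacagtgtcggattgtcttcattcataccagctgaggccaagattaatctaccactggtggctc
Bcl2: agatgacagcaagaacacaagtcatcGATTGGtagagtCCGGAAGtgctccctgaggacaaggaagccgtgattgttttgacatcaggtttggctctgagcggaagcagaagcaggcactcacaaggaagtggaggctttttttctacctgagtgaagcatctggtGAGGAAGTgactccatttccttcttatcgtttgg

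First, the position of the peaks relative to genes was determined. The nearest start was an internal start of the overlapped gene for 849 peaks, or 55.2% (52.7 to 57.7%), and its outermost start for 371 peaks, or 24.1% (22.1 to 26.3%). It belonged to another gene for the remaining 318 peaks, or 20.7%. Of the 1432 peaks that overlapped a coding gene, 56.4% (53.8 to 58.9%) lay over 10 kb from the outermost start of every coding gene they overlapped, and 25.9% over 50 kb. The median distance to the outermost start was 15.3 kb (12.9 to 17.6 kb). The name of this set therefore holds for the nearest annotated transcript and often not for the 5′ end of the gene. That transcript was protein-coding for 55.3% of peaks, a noncoding transcript of a coding gene for 23.7% and of a noncoding gene for 21.0%.

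More peaks lay downstream of the nearest start than upstream of it. The 1058 downstream peaks made up 68.8% (66.4 to 71.1%), while 65.3% of the eligible sequence was downstream. Eligible sequence means gene body bases outside the start windows and without N. Per Mb of it, there were 4.98 peaks downstream (4.68 to 5.29) and 4.26 upstream (3.88 to 4.65). This order did not hold within each kind of start. At starts that carried a peak of their own the densities were 9.88 downstream (8.99 to 10.8) and 11.8 upstream (9.92 to 14.0), and at starts without one 3.62 (3.34 to 3.92) and 3.39 (3.04 to 3.77).

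Peaks were denser here than deep in genes. The 1538 peaks in 325.4 Mb gave 4.73 peaks per Mb (4.49 to 4.97), and the 2074 deep peaks in 603.1 Mb gave 3.44 per Mb (3.29 to 3.59), a ratio of 1.37 (1.29 to 1.47). The limit of 10 kb did not mark a step. Density was 5.36 peaks per Mb at 9 to 10 kb (4.48 to 6.37), 4.66 at 10 to 20 kb, 4.26 at 20 to 30 kb, 3.31 at 30 to 50 kb, 2.67 at 50 to 100 kb and 1.55 beyond 100 kb (1.31 to 1.82). The lowest density within the limit was 2.66 per Mb at 1 to 2 kb, where the rule removes every peak that reaches into the excluded window. Wide RIF1 intervals of 50 kb or more, taken to be RIF1-associated domains (RADs), hold no peak because the authors counted as peaks only those that meet no RAD. Outside them the densities were 5.62 and 3.65 per Mb, a ratio of 1.54 (1.44 to 1.64).

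Density was higher around starts that themselves carried a peak. The nearest start had a peak for 591 members (38.4%), although such starts accounted for 17.7% of the eligible sequence. The density was 10.3 peaks per Mb near starts with a peak and 3.54 per Mb near starts without one, a ratio of 2.90 (2.62 to 3.22). The same ratio for deep gene body peaks was 2.63 (2.41 to 2.87), so the intervals overlapped and the pattern was not particular to the first 10 kb. Sequence in wide intervals was kept in both ratios. Outside them lay 273.7 of the 325.4 Mb near starts and 567.7 of the 603.1 Mb deep in genes. Starts well inside a wide interval can carry no peak, so their sequence counts on the side without one. This raises both ratios by construction, to a degree that was not measured. The highest densities stood upstream of starts with a peak, at 19.2 per Mb between 4 and 5 kb, but with 26 peaks the interval was wide (12.6 to 28.2).

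**Figure D1:**
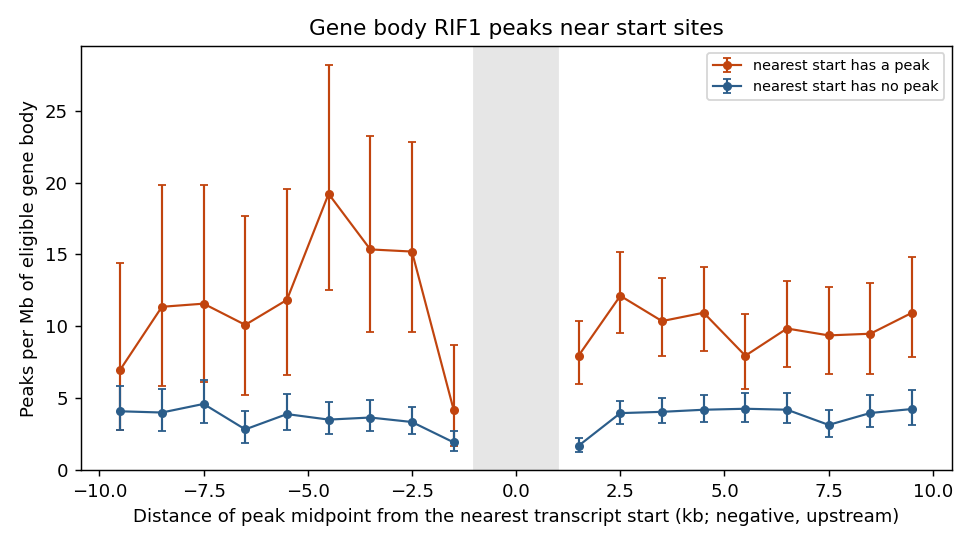
Density of near-start gene body peaks (peaks per Mb of eligible gene body, y axis) against the signed distance of the midpoint from the nearest transcript start (kb, x axis, 1 kb bins), for starts with and without a RIF1 peak. Points are bins, bars are exact Poisson 95% intervals, and the grey band is the excluded window; starts with a peak gave 10.3 peaks per Mb in all and starts without one 3.54. Sequence in wide intervals, which hold no peak, is included.

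Most peaks were intronic. The midpoint lay in an intron for 1333 peaks, or 86.7% (84.9 to 88.3%), slightly under the 89.4% of eligible sequence that is intronic. First introns held 52.1% of peaks (49.6 to 54.6%) and 45.4% of the sequence, while later introns held 34.6% (32.3 to 37.0%) and 44.0%. In deep gene bodies, first introns also held more peaks than sequence, at 35.4% and 29.3%. Coding exons held 106 peaks, or 6.89% (5.73 to 8.27%), against 4.37% of the sequence. The 3′ UTRs held 40 peaks, or 2.60% (1.92 to 3.52%), against 4.01%. A further 26 peaks overlapped a gene at their edge only, with the midpoint outside it.

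In size and base composition, near-start gene body peaks were close to deep ones and unlike peaks at TSSs. Their width had a median of 1132.5 bp (1093 to 1183 bp) and a range from 289 to 13231 bp, against medians of 1168.5 bp for deep peaks and 1562 bp for peaks at TSSs. Since a wide peak centred near a start meets the excluded window, the rule itself limits the width, and peaks centred within 2 kb of a start had a median of 747.5 bp. The median GC content was 48.4% (48.1 to 48.7%), against 47.2% (47.0 to 47.4%) for deep peaks and 54.4% (54.3 to 54.6%) for peaks at TSSs. CpG dinucleotides occurred at 0.255 times the number expected from base content, against 0.241 in deep peaks and 0.628 in peaks at TSSs. A central window that resembled a CpG island, with a GC content of at least 50% and CpGs at 0.6 times the expected number or more, was found in 139 peaks, or 9.04% (7.70 to 10.6%). This was 4.24% of deep peaks and 54.4% of peaks at TSSs. These windows were concentrated in coding exons, where 62 of 106 peaks had one (58.5%, 49.0 to 67.4%), against 65 of 1333 intronic peaks (4.88%, 3.84 to 6.17%). How often coding exons without a peak have such a window was not determined.

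The peaks at the ends of these ranges were then listed. The widest, of 13231 bp on chromosome 11, overlapped Gm525 at its edge, with its midpoint outside genes. It was followed by 7914 bp in Scarf2, a scavenger receptor family gene, 5817 bp in Erg, an ETS factor of blood stem cells, 5751 bp in Sorcs2, a sortilin family receptor gene, and 5683 bp in Gm13561. The highest GC contents belonged to peaks in Prrt4 (68.3%), Inhbb (68.0%), which encodes an inhibin subunit, the netrin receptor gene Unc5a (67.8%), Pura (67.5%) and Espnl (67.3%). Those in Prrt4, Pura and Espnl were centred in coding sequence. The lowest were 33.8% and 35.5% in a pair of peaks over Gm16869 on chromosome 9, 34.2% in Cd36, a fatty acid transporter, 36.02% in Pde4d, a cyclic AMP phosphodiesterase, and 36.4% in Ttll7, a tubulin-modifying enzyme. Despite their low GC content, the pair over Gm16869 had CpGs at 0.788 and 0.922 times the expected number. Just inside the limit of 10 kb lay peaks in Rnf122 (9996 bp) and Zfp445 (9994 bp), and just outside it peaks in Smad3 (10028 bp) and Stra8 (10034.5 bp).

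Near-start gene body peaks often had another peak close by. The gap to the nearest other peak had a median of 5789 bp (5299 to 6331 bp), against 14715 bp for deep peaks and 10381 bp for peaks outside genes. It was under 10 kb for 968 peaks, or 62.9% (60.5 to 65.3%), against 39.7% of deep peaks, 49.3% of peaks outside genes and 32.9% of peaks at TSSs. The limit on distance keeps members close to starts, where 7534 of the 15635 autosomal peaks lie, so short gaps are favoured by construction. The nearest peak was one at a TSS for 58.3% of members and 29.9% of deep peaks, which the same limit also favours. When members under 5 kb apart were joined, 264 of them formed 124 runs, mostly pairs. The longest runs had 4 peaks each, over 13093 bp in Pax5, the factor that maintains B cell identity, and over 15489 bp in Bbs9, a gene of the primary cilium. Members were spread over all 19 autosomes, at between 8.27% of peaks on chromosome 8 (6.54 to 10.4%) and 13.0% on chromosome 16 (10.6 to 15.8%).

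Next, the genes that held these peaks were examined. Of 21418 autosomal coding genes, 1161 overlapped a member, which is 5.42% and serves as the background for the lists further on. A single member lay in 936 of these genes, 165 had 2, 38 had 3, 15 had 4 and 4 had 5, while 1 gene each had 6, 7 and 8. Genes with a member were longer than others, with a median length of 52.0 kb (45.3 to 57.5 kb) against 15.5 kb for all autosomal coding genes and 119.7 kb for genes with a deep peak. The share rose with length, from 1.349% of genes under 10 kb to 15.6% of those of 100 kb or more. In each length class it was higher for genes with a peak at one of their starts. Under 10 kb, 3.52% of genes with a start peak (2.70 to 4.57%) and 0.878% of those without (0.684 to 1.13%) held a member. At 100 kb or more, these shares were 21.6% (19.4 to 24.1%) and 8.74% (7.20 to 10.6%). A peak at a start was present in 791 of the 1161 genes (68.1%), against 34.2% of all autosomal coding genes, so that 370 genes held a member without one. All autosomal coding genes include 5049 that overlap a wide interval, where the list holds no peak, and 14 of these held a member. Of the 16369 genes that meet no wide interval, 7270 had a peak at a start. Genes that meet one were also kept in the shares by length, and their part in these contrasts was not measured. Genes with a member and genes with a deep peak had 309 in common, which was 26.6% of the former and 27.2% of the latter.

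**Figure D2:**
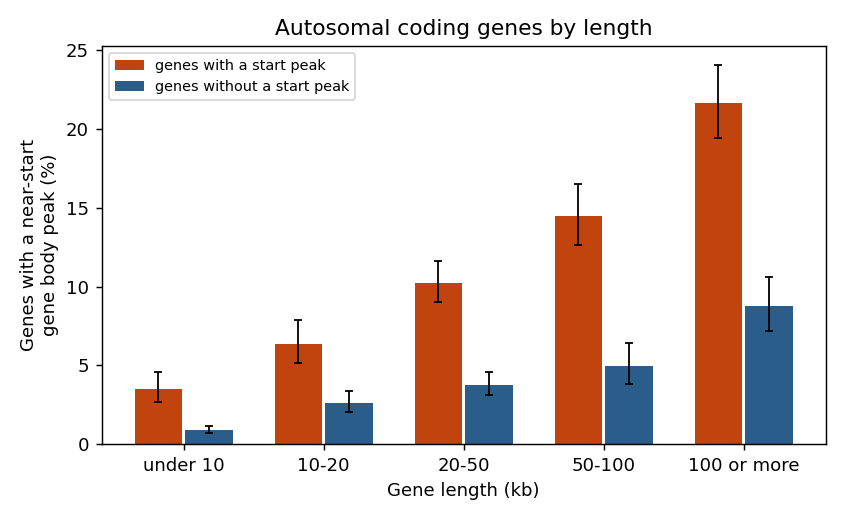
Share of autosomal coding genes that hold a near-start gene body peak (percent, y axis) by gene length (kb, x axis), for genes with and without a RIF1 peak at one of their starts. Bars are shares and error bars Wilson 95% intervals; genes with a start peak are higher in all 5 length classes, with 21.6% against 8.74% in the longest. Genes that overlap a wide interval, where the list holds no peak, are included.

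The gene with most members was Gm20388, with 8, but its model spans 4434.9 kb and contains 72 other coding genes, so its count depends on the annotation. Likewise Fgfr2, a fibroblast growth factor receptor (6 members), had a model of 3009.1 kb with 31 other coding genes inside, and Arfip1 (5 members) one of 1391.4 kb with 5. Sgms1, which encodes a sphingomyelin synthase, had 7 members in 267.0 kb and no other coding gene inside. These were all in its first intron, as counted over its 15 distinct starts, and were 502 to 2129 bp wide. Smad3, a transducer of TGF-beta signals, had 5 members in 111.2 kb, which lay in first introns at 2855 to 9443 bp from the nearest of its 5 starts, and a pair of them was 614 bp apart. Hecw2, a ubiquitin ligase gene, and Dtnb, which encodes a dystrobrevin, also had 5 each, and Dtnb had no peak at any of its 26 starts.

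Genes of B cell function were taken from lists that were drawn up for the cell type and the treatment. The lists were chosen with earlier results of these data known, so the comparisons with them were not set in advance of the data. Of 35 transcription factors of B cells, 7 held a member (20%, 10.0 to 35.9%), against the background of 5.42%. At the rate of all genes of like length, 3.44 of them would hold one. Wide intervals overlapped 22 of the 35, and none of the 7. Since peaks inside wide intervals were left out of the list, genes that meet one had less sequence in which to hold a member. Among genes that meet no wide interval, the share was 7 of 13 (53.8%, 29.1 to 76.8%), against a background of 7.01%. At the rate of such genes of like length, 1.64 of the 13 would hold one. The interval of the share is wide because so few genes were left.

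Pax5 had 4 members, at 3685, 4284, 6503 and 8348 bp from the nearest start, none of which had a peak. The run lay 30.9 to 44.0 kb into the gene, and 2 of the peaks were nearest to Gm12462, a noncoding gene inside it. Runx1 had 3, of which the pair near its outermost start was 4680 and 7115 bp downstream and 1372 bp apart. The other member, of 761 bp, was 8038 bp from the start of Gm16801 and is the one printed. Elf1 had 2 members and no peak at any of its own starts, one 5947 bp from the start of Wbp4 and the other 3824 bp from an Elf1 start. Mef2c had 2, at 6743 bp upstream and 4856 bp downstream of an internal start with a peak. Myb, a factor of early blood cells, had 1 at 7592 bp, Prdm1 had 1 of 2981 bp at 9713 bp, and Tcf4, an E protein of B cell development, had 1 at 1826 bp downstream of a start with a peak.

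Of 36 genes of B cell receptor signalling, 3 held a member (8.33%, 2.87 to 21.8%), close to the 3.37 given by genes of like length. The Src family kinase gene Blk had 1 of 2203 bp at 6608 bp from its start, and the adaptor gene Blnk had 1 of 1270 bp at 3568 bp. Both starts carried a peak. In Lyn, the peak of 788 bp was 9355 bp from the start of Gm11805 and had no other peak within 50375 bp.

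In the lists on the treatment, few genes held a member. Of 19 genes of LPS sensing, Irak2, a kinase downstream of Toll-like receptors, did so, with 1310 bp at 8479 bp (5.26%, 0.935 to 24.6%). Of 17 NF-kappaB genes, Nfkbie, which encodes an inhibitor of NF-kappaB, did so, with 2807 bp at 3724 bp (5.88%, 1.05 to 27.0%). Among genes of IL-4 signalling, Socs2, a suppressor of cytokine signalling, held 2, at 2987 and 4113 bp. Of 28 surface receptors of B cells, the costimulatory gene Cd86 held 1 of 1877 bp and Tnfrsf17, the receptor BCMA of plasma cells, 1 of 2064 bp (7.14%, 1.98 to 22.6%). All 3 of these intervals contain the background of 5.42%.

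The other lists were examined in the same way. None of 30 genes of class switching and break repair (0 to 11.4%), 37 of replication licensing and firing (0 to 9.41%) or 34 of cytosolic ribosomal proteins (0 to 10.2%) held a member, and 23, 20 and 16 of them had a peak at a start. All 3 intervals contain the background of 5.42%, and at the rate of genes of like length 2.40, 2.05 and 0.512 genes would hold one. Of 25 cell cycle genes, 1 held a member (4%, 0.710 to 19.5%), against 1.34 at the rate of genes of like length. It was Ccnd3, which encodes cyclin D3, with 2 members. Of 16 BCL2 family genes, 2 held a member (12.5%, 3.50 to 36.02%), against 0.708 at the rate of genes of like length. They were Bcl2 and Bid, a death agonist. The intervals of both lists contain the background of 5.42%. Of 28 markers of T cells and myeloid cells, 7 held a member (25.0%, 12.7 to 43.4%), against 1.67 at the rate of genes of like length. Among those that meet no wide interval, the share was 7 of 17 (41.2%, 21.6 to 64.0%), against 1.17 at the rate of such genes of like length. Examples are Il7r at 1858 bp, Csf1r at 2985 bp, Cd3d at 4916 bp and Zap70 at 5205 bp from a start. Of these, Csf1r, Cd3d and Zap70 had no peak at a start. Whether other cells were present could not be checked from positions. Of 28 synapse genes, 4 did (14.3%, 5.70 to 31.5%), against 3.81 at the rate of genes of like length. The intervals of the T cell and myeloid list and of the B cell factors overlapped.

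**Figure D3:**
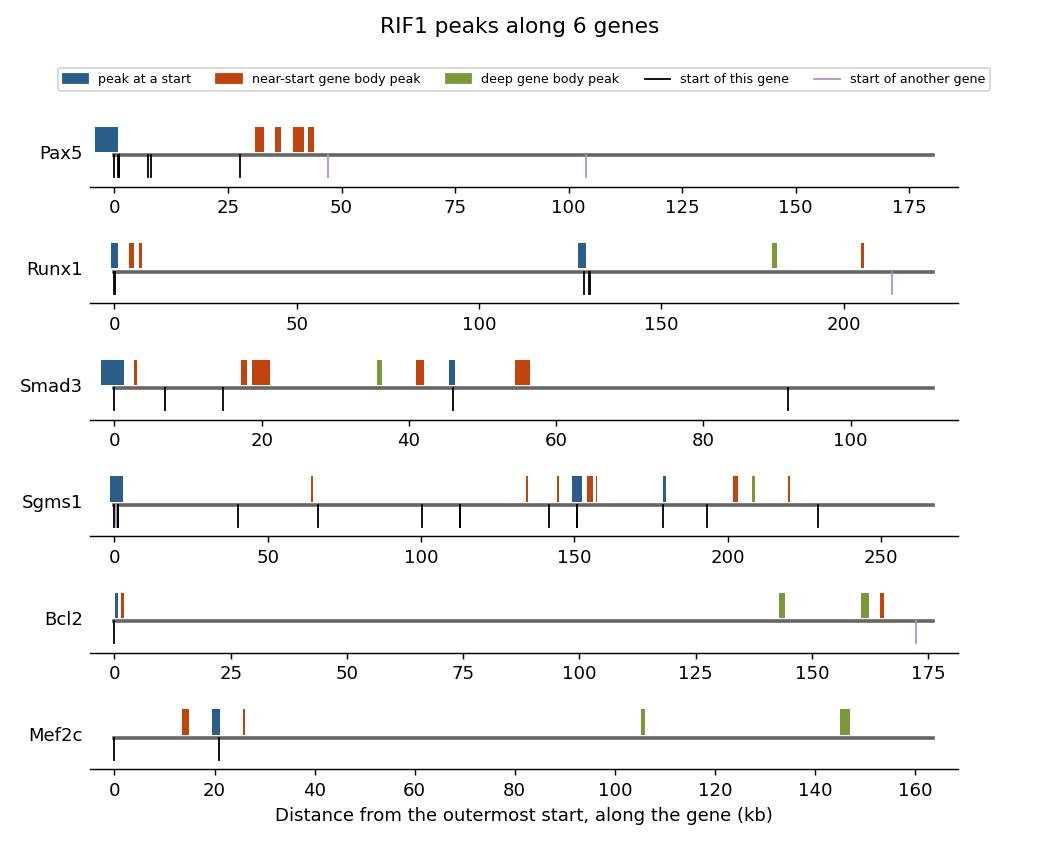
RIF1 peaks along 6 genes, drawn to scale as distance from the outermost start along the gene (kb, x axis). Coloured boxes are peaks at a start, near-start and deep gene body peaks, and ticks under the line are transcript starts of the gene (black) or of another gene (violet); the 4 near-start peaks of Pax5 form 1 run, while the 7 of Sgms1 are spread along the gene.

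Finally, the sequence at the midpoints was searched on both strands for motifs of transcription factors. Each motif was compared with the share of 1580452 windows of 200 bases that tile the same eligible sequence, weighted to the GC content of the peaks in bins of 2.5 percentage points. Tiles were not limited to sequence in which reads align uniquely. A match is a description of the sequence, not of binding by the factor.

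Motifs of ETS family factors were more frequent in the peaks than in tiles. The PU.1 motif (GAGGAAGT), of a factor of B and myeloid cells, was found in 63 peaks, or 4.10% (3.21 to 5.21%), against 1.37% of weighted tiles and 1.19% of all tiles. The CpG-containing ETS motif (CCGGAAG) was found in 2.93% (2.19 to 3.89%), against 1.17% of weighted tiles. No PU.1 match overlapped an ETS match. Peaks at TSSs had these in the opposite order, with 1.63% for PU.1 and 7.62% for ETS. In deep gene body peaks the shares were close to those of near-start peaks, at 3.57% for PU.1 (2.85 to 4.46%) and 2.17% for ETS (1.63 to 2.89%). The ETS-IRF composite (GGAA and GAAA separated by any 2 bases) was found in 3.45% (2.64 to 4.48%) and 1.69% of weighted tiles, and the IRF motif (GAAA and GAAA separated by any 2 bases) in 3.45% and 1.98%, with 2.85% of tiles before weighting. The ETS-IRF match overlapped an IRF match in 3 peaks and a PU.1 match in 4. Deep peaks held the composite in 3.28% and the IRF motif in 4.44% (3.63 to 5.41%).

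Some other motifs were also more frequent than in tiles. The AP-1 motif (TGANTCA) was found in 140 peaks, or 9.10% (7.77 to 10.6%), against 5.34% of weighted tiles. The palindromic E-box (CACGTG), bound by MYC and USF proteins, was found in 125 peaks, or 8.13% (6.86 to 9.60%), against 3.14%. In deep peaks AP-1 stood at 10.6% (9.31 to 12.0%) and the E-box at 7.52% (6.46 to 8.74%), with intervals that overlapped those of near-start peaks. Octamer (OCT, ATTTGCAT) and NF-kappaB (GGG and TTTCC separated by any 2 bases) motifs were found in 2.34% (1.70 to 3.22%) and 2.02% (1.42 to 2.85%), against 0.798% and 0.863%. Of these motifs and PU.1, ETS, ETS-IRF and RUNX (TGTGGTT), 395 peaks held 1, 83 held 2, 8 held 3 and 1052 held none. IRF was left out of this count.

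For other motifs the interval contained the weighted share of tiles. These were E2A (CAGGTG, 17.3% against 18.2%), NF-Y (CCAATC, 5.46% against 5.76%), STAT6 (TTC and GAA separated by any 4 bases, 4.49% against 4.54%), EBF (TCCC and GGGA separated by any 2 bases, 0.9753% against 0.620%), CRE (TGACGTCA, 0.195% against 0.154%), NRF1 (0.0650% against 0.0246%) and the CTCF core (0.130% against 0.127%). Before weighting, the tile shares of E2A and EBF were 14.1% and 0.423%. These lay below the intervals of the peaks, 15.5 to 19.3% and 0.592 to 1.60%. The TATA motif (TATAAA) stood at 7.48% (6.27 to 8.90%) against 8.74%, but at 15.8% of tiles before weighting. RUNX (TGTGGTT, 5.98%, 4.90 to 7.28%) and SP/KLF (GGGGCGGGG, 1.495%, 0.999 to 2.23%) lay just above the weighted shares of 4.72% and 0.985%. The RUNX interval contained the share of tiles before weighting, 5.19%. CpGs themselves (CG) were present in 92.4% of peaks and 84.8% of weighted tiles.

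G-quadruplex matches, defined as 4 runs of at least 3 G separated by 1 to 7 bases on either strand, were not more frequent. They were found in 64 peaks, or 4.16% (3.27 to 5.28%), against 6.60% of weighted tiles, 3.52% of all tiles, 4.24% of deep peaks and 11.7% of peaks at TSSs (11.0 to 12.5%). The side of the tile share on which the peaks fell thus depended on the weighting.

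**Figure D4:**
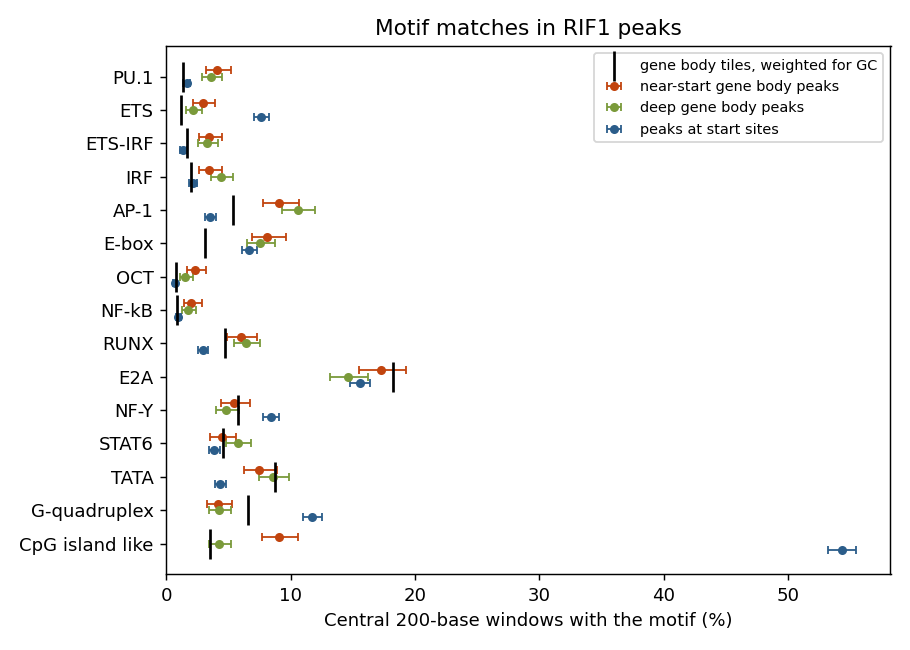
Share of central windows of 200 bases with a match to each motif (percent, x axis; motifs on the y axis) in near-start gene body peaks, deep gene body peaks and peaks at start sites, with Wilson 95% intervals. Vertical marks give gene body tiles weighted for GC content; AP-1 stood at 9.10% in near-start peaks against 5.34% of tiles, and windows like CpG islands at 9.04% against 54.4% of peaks at start sites.

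Matches to some of these motifs were denser around the midpoints. PU.1 matches occurred at 0.215 per kb within 100 bp of the midpoint (0.166 to 0.273) and at 0.0780 per kb between 1500 and 2000 bp from it (0.0647 to 0.0933). Over the same span, E-box matches went from 0.442 (0.371 to 0.523) to 0.149 per kb (0.130 to 0.169), AP-1 matches from 0.517 (0.440 to 0.604) to 0.306 per kb (0.279 to 0.335), and ETS matches from 0.153 (0.112 to 0.203) to 0.0514 per kb (0.0407 to 0.0640). OCT matches went from 0.124 (0.0874 to 0.170) to 0.0579 per kb (0.0465 to 0.0712), and NF-kappaB matches from 0.107 (0.0738 to 0.151) to 0.0468 per kb (0.0366 to 0.0590). For the ETS-IRF composite, with 0.176 (0.132 to 0.229) and 0.122 per kb (0.105 to 0.141), and for RUNX, with 0.309 (0.250 to 0.378) and 0.247 per kb (0.223 to 0.273), the intervals overlapped. The PU.1, ETS-IRF and RUNX densities were higher at 100 to 200 bp than in the innermost bin. TATA matches went the other way, from 0.416 (0.347 to 0.495) to 0.728 per kb (0.686 to 0.771). G-quadruplex matches were also sparser at the midpoint, at 0.221 per kb (0.172 to 0.280) against 0.326 (0.298 to 0.356). Base composition changes over the same span and flanks can include a neighbouring peak, and the part of either in these profiles was not tested.

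**Figure D5:**
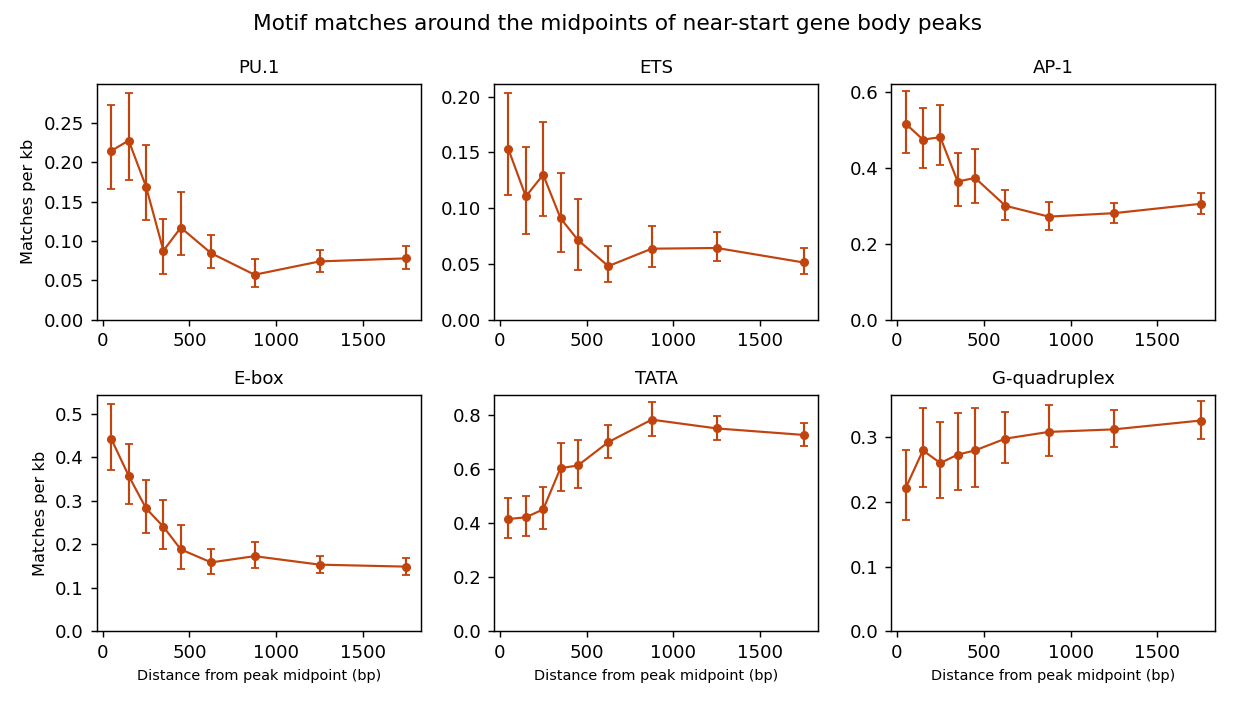
Motif matches per kb (y axis, a separate scale in each panel, all from 0) against distance from the midpoint of the 1538 near-start gene body peaks (bp, x axis, both sides combined). Points are bins and bars exact Poisson 95% intervals; PU.1, ETS, AP-1 and E-box matches are denser within 200 bp of the midpoint than beyond 1000 bp, as with 0.442 per kb for the E-box in the innermost bin, and TATA and G-quadruplex matches are lowest there.

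Peaks next to a start with a RIF1 peak and those next to a start without one had similar sequences. Their median GC contents were 48.4% (48.1 to 48.8%) and 48.3% (48.0 to 48.7%). PU.1 was found in 3.72% and 4.33%, AP-1 in 8.46% and 9.504% and the E-box in 8.12% and 8.13%, with overlapping intervals throughout. Peaks centred in coding exons stood apart, as the AP-1 motif was found in 1 of 106 (0.943%, 0.167 to 5.15%) against 133 of 1333 intronic peaks (9.98%, 8.48 to 11.7%), and their median GC content was 57.9% (56.3 to 59.1%) against 48.0% (47.8 to 48.3%). Tiles were not split by exon and intron, so whether coding exons without a peak differ from introns in the same way was not tested.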

How the data were processed

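ChIP-seq reads were trimmed (Trim Galore 0.6.4) and uniquely aligned to mm9 (Bowtie 1.0.0) by the authors, who called narrow and broad peaks per replicate with MACS2 2.2.6 and domains with EDD, merged them with bedtools 2.27.1 and kept those called in both Rif1FH replicates. The authors deposited 1 list of intervals with 3 columns, which hold positions and no score. A peak near the detection limit can be lost where it was called in 1 replicate. Sequence in which no read aligns uniquely can carry no peak.

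Here intervals were split at 50 kb, since the list does not name their kind, and assigned to classes with GENCODE M1 on NCBIM37 (mm9). Motifs were searched in the central 200 bases. Genes named are those with most members, those at the extremes of width, GC content and distance, and those of the gene lists, of which the result for IL-4 and STAT signalling as a whole is not reported here. Members and lists were chosen with earlier results of these data known. Class assignment was tested on planted peaks of known class, and density on evenly placed intervals. These intervals were far narrower than the peaks, so they could not show the loss of wide peaks next to the start windows. Python 3.11.15, numpy 2.4.6, scipy 1.17.1 and pysam 0.24.0 were used. Alternatives covered the start window, the distance limit, the distance measure, the annotation, peak width, the midpoint and chromosome X.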

Additional observations from a re-analysis of the deposited data

How the results depend on the processing

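No paired analysis was possible because both Rif1FH replicates were combined before deposit, with no value per sample, and for the same reason no replicate could be left out. Over the alternatives for 11 results, 77 values stayed within the 95% interval of the reported value (counts within 1.5 times), 24 moved and none reversed. The distance limit and peak width moved most, and each setting changes which peaks are members. With a 5 kb limit there were 818 members, a density ratio of 1.201, 56.6% in first introns, a median width of 1071.5 bp and 3.24% of coding genes with a member. With a 20 kb limit these were 2334, 1.59, 49.1% and 7.27% of genes, with 88.3% in introns, a median GC content of 48.1% and 56.8% within 10 kb of another peak. With only peaks at or above the median width of all peaks there were 596 members, with a median of 1866.5 bp, 49.2% in first introns, 54.1% whose gene had a start peak, 46.8% within 10 kb of another peak and 2.34% of genes with a member. With a 500 bp start window, 66.8% of members lay in a gene with a start peak and 6.10% of genes held a member, and with a 2 kb window 4.41% did. Distance from the nearest edge of the peak gave a density ratio of 1.49, and sequence outside wide intervals, added after the data were seen, gave 1.54. In the central 400 bases, 9.10% of members had a G-quadruplex match. The cause of these shifts was not tested beyond the change of members, sequence or window that each setting makes. Depth is unknown, so a missing peak does not show that RIF1 was absent.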
